A study of Mus musculus with 39 samples.

Results

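The loosely wrapped and late replicating regions described here are stretches of the mouse autosomes where a loose nucleosome wrapping domain (LoNRD) and a late replication timing (RT) domain lie over each other. The members were chosen by the sign of the values themselves: a region is each unbroken overlap, at least 100 kb long, of a LoNRD (wrapping index below 0) with a late RT domain (log2 timing value below 0). There were 679 such regions among 2375 segments of the same minimum length that the 4 combinations of tight or loose wrapping with early or late timing gave on chromosomes 1 to 19. Because wrapping and timing selected the members, the values of both are given below only as a description.

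H3-wrapping-seq and RT profiling were performed in wild type R1 cells, a single line of embryonic stem (ES) cells derived from the inner cell mass of a mouse embryo, grown in serum with leukemia inhibitory factor. For H3-wrapping-seq there were 4 libraries from 2 experiments, made from crosslinked chromatin digested with MNase and precipitated with an antibody against histone H3. For RT there were 8 libraries of DNA pulse-labelled with BrdU, an analogue of thymidine, from cells sorted into the S1, S2, S3 and S4 fractions of S phase in 2 experiments. The other libraries of the series, such as those with histone H4, digestion times or wrapping in sorted cell cycle phases and on newly made DNA, were not analysed here. Each kind of data was used as a single list of domains, in which no replicate is named and no read number is given. Spread is given over the 19 chromosomes, since the lists hold no values per replicate.

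DNA winds around a histone octamer to form a nucleosome, and the ends of the wound stretch can come off and wind back. MNase trims DNA that the octamer does not hold, so a shorter protected fragment stands for looser wrapping. The genome is copied in a set order during S phase, and late copied DNA is known to be mostly poor in genes, rich in A/T and placed near the nuclear lamina.

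The wrapping index compares the numbers of fragments longer and shorter than 140 bp in bins of 100 kb, as a z-score without unit. Over the 679 regions the index, which is that of the LoNRD a region lies in, had a median of −0.64, with quartiles of −0.87 and −0.38 and extremes of −1.88 and −0.03. The timing value, the log2 ratio of the S1 and S2 to the S3 and S4 fractions, had a median of −0.77 over the regions, with quartiles of −0.90 and −0.58 and extremes of −1.27 and −0.11. The lowest timing value of the autosomes was thus in a region, while the lowest autosomal wrapping index, −2.39, was in a loose and early segment. At the length limit, 7 regions measured exactly 100 kb, among them chr2:13200001-13300000 (index −0.63, timing −0.50), chr2:68600001-68700000 (−0.17 and −0.72) and chr9:25700001-25800000 (−0.57 and −0.38). Just outside it were 9 overlaps of 50 kb that are not counted, such as chr1:80100001-80150000 (−0.74 and −0.43), chr2:114000001-114050000 (−0.62 and −0.92) and chr2:148700001-148750000 (−0.60 and −0.64).

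The regions covered 945.0 Mb, 38.4% of the length of the autosomes. The median length was 950 kb, with quartiles of 550 and 1800 kb. Most of the length lay in long members: 334 regions of at least 1 Mb held 79.6% of it, while 131 regions shorter than 500 kb held 4.62%. The tight and early segments, the other large combination, numbered 708 with a median of 825 kb and covered 920.6 Mb. The mixed combinations came in shorter pieces, with medians of 300 kb for the 363 loose and early and 350 kb for the 625 tight and late segments.

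The share of a chromosome taken by the regions varied more than 2-fold. It was highest on chromosome 3, at 52.1%, followed by chromosome 16 at 49.4% and chromosome 1 at 46.5%. The lowest shares were those of chromosome 11, at 22.3%, and chromosome 7, at 26.6%. Median lengths per chromosome ran from 600 kb on chromosome 17 to 1600 kb on chromosome 16.

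The regions took up 84.4% of the 1119.6 Mb in autosomal LoNRDs, and 75.9% of the 1244.6 Mb in late RT domains. Of the 525 autosomal LoNRDs in the deposited list, 451 held at least 1 region, 314 of them exactly 1, 88 held 2 and 49 held 3 or more. The 74 LoNRDs without a region were short, with a median of 400 kb against 1400 kb for those with a region, and their median index was −0.24 against −0.51. A single LoNRD could be divided by RT calls into as many as 6 regions. This was the case for chr12:36300001-51700000, 79.2% of which lay in regions, for chr1:137200001-151000000 (83.3%) and for chr13:78300001-90900000 (86.9%).

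The borders of the regions were mostly set by a single list. Of the 1358 region ends, 337 (24.8%, 95% Clopper-Pearson interval 22.5 to 27.2%) lay within 100 kb of both a LoNRD border and a late RT border on the same side. A further 630 ends (46.4%) lay near a late RT border alone, and 391 (28.8%) near a LoNRD border alone. At 64 ends (4.71%) the borders of both lists had the same position. The interval covers counting error only, and neighbouring ends are not independent.

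Beyond an end, the commonest call was tight but still late, at 474 ends (34.9%). Loose and early chromatin followed 417 ends (30.7%), and loose chromatin without an RT call followed 340 ends. A change of both calls at the same place, to tight and early, was found at 55 ends (4.05%). Just beyond most ends, thus, only the wrapping call or only the RT call differed, an absent call included. Wrapping borders lie on a grid of 100 kb and RT borders on a grid of 50 kb. The order of changes is not resolved below these steps. Only 2 of the 679 regions were a whole LoNRD and a whole late RT domain at the same time, while 156 were a whole LoNRD and 266 a whole late RT domain.

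Neighbouring regions within the same LoNRD were separated in different ways. In 148 cases no early RT domain lay between them, and the gap had a median of 200 kb. These gaps held 4.37 protein-coding genes per Mb against 2.98 in the regions, and had an A/T content of 61.5%, the same as the regions. In 80 cases an early RT domain lay in the gap, which then had a median of 475 kb, 6.61 genes per Mb and an A/T content of 60.5%.

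The sequence of the regions, which the rule did not use, was rich in A/T. Over assembled bases of the mouse reference GRCm38, the assembly that mm10 stands for, 61.5% were A or T in the regions, against 58.1% over all autosomes. The mean of the 19 chromosomes was 61.5% ± 0.33 (SD over chromosomes). The same mean was 59.9% ± 0.42 in loose and early, 56.9% ± 0.42 in tight and late and 54.6% ± 0.81 in tight and early segments. On each of the 19 chromosomes the regions were higher than each of the other combinations, and the difference from tight and early segments lay between 5.23 and 8.07 percentage points.

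CpG dinucleotides, the main sites of DNA methylation, were sparse in the regions. Their observed number was 0.154 of that expected from C and G content, against 0.224 in tight and early segments, and there were 5.70 CpG per kb against 11.6. Soft-masked repeats made up 38.7% of the assembled bases in the regions and 28.6% in tight and early segments. For CpG the regions were lower, and for repeats higher, than tight and early segments on all 19 chromosomes. Against loose and early segments the repeat share was higher on 12 chromosomes and lower on 7, so that this measure did not separate the 2 kinds of loose chromatin.

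Within the regions, A/T content went along with wrapping. Over the 679 regions the Pearson correlation of A/T content with the wrapping index was −0.76 and the Spearman correlation −0.78, while the correlation of A/T content with the timing value was −0.20 and −0.19. The index and the timing value were correlated with each other at 0.21 and 0.22. Regions of the same LoNRD share its index, and neighbours share base composition. The index and the timing value come from the same pair of lists that chose the regions, so these numbers are a description only. MNase is known to cut A/T-rich DNA preferentially, and the part of base composition in the index was not tested here.

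The 226 regions with the lowest index had an A/T content of 62.2%, a median length of 2100 kb and 2.06 protein-coding genes per Mb. In the 226 with an index closest to 0 these values were 59.8%, 500 kb and 4.51 genes per Mb. Ranked by timing, the 226 latest regions had an A/T content of 61.6% and 2.08 genes per Mb, and the 226 least late ones 60.8% and 4.67 genes per Mb. These groups differed in length as well, with medians of 1450 and 550 kb. The 227 regions between them had an A/T content of 61.7% and 3.14 genes per Mb. Over the 679 regions, A/T content and gene density had a Pearson correlation of 0.02 and a Spearman correlation of −0.04. Ranked by A/T content, the lowest, middle and highest groups had 2.80, 3.89 and 2.51 genes per Mb. The share of regions without a gene start did not follow gene density. It was 18.6% for the lowest and 32.7% for the highest index, and 25.7% and 25.2% for the latest and least late regions. Ranked by length, it was 40.3% in the 226 shortest and 7.96% in the 226 longest regions.

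Values also differed with the distance from the ends of the regions. In the outermost 100 kb the A/T content was 60.2% and there were 4.91 protein-coding gene starts per Mb. Between 500 and 1000 kb from the nearest end these values were 62.1% and 2.38, and deeper than 1000 kb they were 62.7% and 1.19. Outside, in the 100 kb next to an end, they were 59.5% and 5.77, and between 250 and 500 kb away 56.8% and 10.9. The deeper steps come from longer regions only, and these differed as wholes: the 226 longest had an A/T content of 62.0% and 2.13 genes per Mb, the 226 shortest 60.2% and 5.11. The profile therefore does not describe a single region, and it gives no information below the 50 kb grid of the bins.

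The longest region, chr14:106100001-114300000, measured 8200 kb and held 5 protein-coding genes, counted by annotated start, Trim52, Slitrk1, Slitrk6, Slitrk5 and Tpm3-rs7. The Slitrk genes encode membrane proteins of neurons with leucine-rich repeats. Its index was −1.01, its timing value −0.83 and its A/T content 63.4%. The next in length, chr16:65200001-72600000, measured 7400 kb and held 7 genes, beginning with Pou1f1, a transcription factor of the pituitary, Chmp2b, Vgll3, Cadm2 and Speer2. In chr14:91600001-98950000 (7350 kb) there were 4 genes, Pcdh9, 4921530L21Rik, Klhl1 and Dach1.

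Chromosome 1 held the remaining pair of the 5 longest. The region chr1:110900001-117900000 (7000 kb) began with Cdh19, Dsel and Cntnap5a, followed by Gm19965 and Gm28363, and 46.5% of its bases were soft-masked. The region chr1:24100001-30700000 (6600 kb) began with Fam135a, the collagen genes Col9a1 and Col19a1, Lmbrd1 and Adgrb3, an adhesion G protein-coupled receptor. All 5 lay within a single late RT domain each, with timing values between −0.94 and −0.72.

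The lowest wrapping index, −1.88, belonged to a short region without the start of a protein-coding gene, chr7:9400001-9650000 (250 kb), of which 60.0% was soft-masked and which is among those left out for unassembled bases in an alternative. It was followed by chr4:111700001-114200000 (−1.24), which held Spata6, Slc5a9 and then Skint8, Skint7 and Skint1 as the start of a cluster of 11 Skint genes, named for their selection of intraepithelial T cells. The next value, −1.20, was shared by 3 regions of the same LoNRD. The first of these by position, chr2:94600001-97850000, was 3250 kb long with a single gene, Lrrc4c, which encodes a synaptic adhesion molecule. The 3 regions named here differed in timing, at −0.77, −0.56 and −1.01.

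The lowest timing value, −1.27, was that of chr18:40450001-41900000, which held no start of a protein-coding gene and had an index of −0.65. In chr11:42200001-43200000 (timing −1.26, index −1.18) there were Gabra6 and Gabrb2, subunits of GABA-A receptors, Gm9972 and Atp10b. The region chr3:128100001-129100000 (timing −1.22, index −0.57) again held no gene start.

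The start of 2812 of 20807 autosomal protein-coding genes (13.5%) of the GENCODE annotation lay in the regions, while 14497 (69.7%) lay in tight and early segments. The density was 2.98 genes per Mb, with a mean over chromosomes of 3.16 ± 1.95 (SD, 19 chromosomes), against 15.5 ± 3.14 in tight and early segments. The mean was 8.74 ± 2.66 in loose and early and 5.03 ± 2.01 in tight and late segments. The density of the regions was lower than that of tight and early and of loose and early segments on all 19 chromosomes. Against tight and late segments it was lower on 14 chromosomes and higher on 5, with a mean difference of −1.88 ± 2.87 genes per Mb (SD over chromosomes). Without sensory receptor genes (olfactory, vomeronasal, taste and trace amine), the pooled density was 1.98 per Mb in the regions and 4.83 in tight and late segments.

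Genes were spread unevenly over the regions. No protein-coding gene started in 161 regions (23.7%, 95% Clopper-Pearson interval 20.6 to 27.1%), which together measured 127.9 Mb, and 139 regions held 1 gene. When any overlap with a gene counted, 13.3% of the regions were without a gene. At the other end, 30 regions with 20 or more genes held 1059 of the 2812. No gene started in 22.6% of the loose and early segments (interval 18.4 to 27.2%). In tight and late segments the share was 32.8% (29.1 to 36.6%), and in tight and early segments 3.39% (2.18 to 5.00%). Median lengths were 950 kb in the regions and 300, 350 and 825 kb in these segments, so that pieces of unlike length are compared. The intervals cover counting error only, and neighbouring segments are not independent. Chromosome 7 had the highest gene density in its regions, 8.52 per Mb, and chromosome 12 the lowest, 1.09 per Mb.

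The longest regions without the start of a protein-coding gene were chr14:80000001-84050000 (4050 kb, A/T content 63.0%), chr18:26650001-30250000 (3600 kb, 62.0%) and chr6:73500001-76400000 (2900 kb, 62.8%). Their wrapping index lay between −1.08 and −1.02, lower than in most members.

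The regions with most genes were clusters of olfactory receptors, which detect odours and are each used by few sensory neurons. In chr2:87750001-90200000 there were 112 genes, 110 of them sensory receptors, beginning with Olfr1141, Olfr152, Olfr1143, Olfr1145 and Olfr1148. The region chr19:12200001-14300000 held 65 genes, 54 of them sensory receptors, and began with Olfr1431, Olfr1432, Olfr262, Olfr235 and Olfr1434. The region chr7:103300001-104100000 held 54 genes in 800 kb. It began with Olfr596, Olfr597, Olfr598, Olfr599 and Olfr600, and between its receptors lay the globin genes Hbb-bt, Hbb-bs, Hbb-bh2, Hbb-bh1 and Hbb-y, which were singled out after the values were seen.

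Of 1128 autosomal olfactory receptor genes, 738 (65.4%) started in 31 of the regions, against 13.5% of all autosomal protein-coding genes. These counts include genes that the annotation calls protein-coding although their symbol holds -ps, for pseudogene. Vomeronasal receptors, which detect pheromones, were also frequent, with 104 of 208 (50.0%) of type 1 and 67 of 119 (56.3%) of type 2, and so were bitter taste receptors with 28 of 35 (80.0%). All 15 trace amine receptors, another family of olfactory neurons, lay in tight and early segments instead. Sensory receptors made up 937 of the 2812 genes (33.3%) but were found in 54 regions only. Without them, 1875 of 19299 genes (9.72%) started in the regions, and the density was 1.98 per Mb.

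Families of cell adhesion genes differed in their share, which was 13.5% for all autosomal protein-coding genes. Of 18 contactin, Cntnap, neurexin and neuroligin genes, 14 (77.8%) started in the regions, spread over 13 of them, and the other 4 in tight and early segments. Of 23 cadherin genes, 11 (47.8%) started in the regions, namely Cdh2, all of Cdh6 to Cdh12, Cdh18, Cdh19 and Cdh20, while the epithelial cadherin gene Cdh1 was in a tight and early segment. Protocadherins, a list that takes in the clustered genes, were near the share of all genes with 7 of 67 (10.4%). These were Pcdh7, Pcdh9, Pcdh10, Pcdh15, Pcdh17, Pcdh18 and Pcdh20. Of the others, 36 were in tight and early and 24 in tight and late segments. Genes in and outside the clusters were not counted separately, so the share need not hold for either kind.

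Receptors and channels were divided among the combinations. GABA-A receptor subunits started in the regions in 9 of 16 cases (56.3%), in 3 regions, with Gabra2, Gabra4, Gabrb1 and Gabrg1 side by side in chr5:69550001-72050000. Potassium channel genes, with 15 of 92 (16.3%), were near the 13.5% of all genes. The 3 sodium channel genes in the regions, of 14, were Scn1a, Scn7a and Scn9a, which lie together in chr2:66100001-68200000.

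Long genes were frequent. Of 218 autosomal protein-coding genes of at least 500 kb, 115 (52.8%) started in the regions, in 107 different ones, and 46 (21.1%) in tight and early segments. For all autosomal protein-coding genes these shares were 13.5% and 69.7%. Of the 55 genes of at least 1000 kb, 37 started in the regions. The bodies of 66 of the 115 lay wholly inside, as for Lsamp (2197 kb, index −1.10), Lrp1b (2058 kb, −1.04) and Macrod2 (1998 kb, −0.67). Others reached across a border, such as Ptprd, with 95.6% of its 2271 kb in the regions, and Cntnap2, with 90.9% of 2245 kb. The median span of the genes in the regions was nevertheless 11.9 kb, against 17.6 kb for all autosomal protein-coding genes. The upper quartile was 61.4 kb in the regions and 41.9 kb in tight and early segments. It was 60.8 kb in loose and early and 56.9 kb in tight and late segments. Of the 2812 genes in the regions 937 were sensory receptors, and their part in the median was not tested.

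Gene clusters used in other tissues were present in the regions to different extents. Of the 26 prolactin family genes, hormones of pituitary and placenta, 25 (96.2%) started in the regions, against 13.5% of all autosomal protein-coding genes. Of these 25 prolactin family genes, 23 were in chr13:26250001-28600000 (index −0.95, timing −0.87). Killer cell lectin-like receptors of natural killer cells were present with 19 of 26 (73.1%), all in chr6:129150001-131250000. Of 57 keratin-associated protein genes, which serve the hair shaft, 22 (38.6%) lay in the regions, all in chr16:87900001-89500000, whereas none of the 53 keratin genes was in a region.

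Clusters of the skin surface were noticed after the values were seen. In chr3:91000001-93000000 (index −0.58, timing −0.72) lay 20 of 21 late cornified envelope genes and all 15 small proline-rich protein genes, Sprr2j-ps included, among its 48 genes. Against 13.5% of all autosomal protein-coding genes, 13 of 21 sulfotransferase genes (61.9%) were in the regions. Of 18 Ifi genes, which respond to interferon, 13 (72.2%) were there. These lists were picked for their position and are not independent of it.

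Shares also differed among enzymes and secreted proteins, against 13.5% of all autosomal protein-coding genes. UDP-glucuronosyltransferases, which conjugate drugs and bilirubin, started in the regions in 9 of 22 cases (40.9%), 8 of them in chr5:86950001-88350000. Serpins did so in 13 of 60 cases (21.7%) and cytochrome P450 genes in 17 of 100 (17.0%), 10 of the latter in chr19:39150001-40100000. Defensins, with 6 of 64 (9.38%), all in 1 region, were near the share of all genes. None of the 22 major urinary protein and 13 pregnancy-specific glycoprotein genes lay in the regions.

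Several other lists had few genes in the regions. Of 80 cytosolic ribosomal protein genes, Rpl10l alone started in a region (1.25%), and 73 were in tight and early segments. Of 78 mitochondrial ribosomal protein genes, Mrpl1, Mrpl32 and Mrps30 did (3.85%), and of 49 genes with symbols beginning in Psm, mostly proteasome subunits, Psma2 (2.04%), which lies next to Mrpl32 in chr13:14450001-15400000. Among 16 genes with symbols beginning in Orc or Mcm, most of which act in DNA replication, Orc4 (6.25%) was in a region, 250 kb from its nearest end, but this list is too short to be set apart from the 13.5% of all genes. Zinc finger genes named Zfp, with 12 of 385 (3.12%), were rare, and none of the 39 Hox genes or the 73 replication-dependent histone genes was found there.

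None of the 15 pluripotency factors, which sustain the ES cell state, started in the regions. Of these, 14 were in tight and early segments, as Pou5f1 (index 1.31, timing 1.65), Sox2 (0.40 and 0.72) and Nanog (0.45 and 1.28), and Zfp42 was in a loose but early segment (−0.76 and 0.80). None of the 12 germ layer factors was in the regions either, and 9 of them were in tight and early segments. Both lists are short, and 13.5% of all autosomal genes started in the regions and 69.7% in tight and early segments. Gata6 was in a tight and late segment and Sox17 in a loose and early one, so that each of this pair shared a single call with the regions.

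Other classes of the annotation had shares above and below the 13.5% of protein-coding genes. Of 8924 processed pseudogenes, which are copies of messenger RNA, 2893 (32.4%) started in the regions, and of 5209 long intergenic non-coding RNA genes 1153 (22.1%). Both shares were below the 38.4% of autosomal length that the regions covered. The regions held 112 of 218 immunoglobulin variable gene segments (51.4%). Antisense genes, which need a neighbour on the other strand, were below it, with 280 of 2913 (9.61%).

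MicroRNA genes of the annotation started in the regions in 344 of 2054 cases (16.7%). In the RefSeq table of hairpins the share was 101 of 919 (11.0%), in 68 regions. The largest group was the Mir344 family, 13 hairpins in chr7:60000001-62600000 (index −0.92, timing −0.83), a region that also holds the imprinted genes Snrpn, Ndn, Magel2 and Mkrn3. Next came the 6 hairpins of the Mir17 cluster, a set known to promote proliferation, in chr14:114450001-117700000 (index −1.01, timing −0.80), 594 kb from the nearest end of the region. This region held Gpc5 and Gpc6 as its only protein-coding genes.

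The mature sequences of the Mir17 cluster are shown because they are known to be used in dividing cells while their locus has loose and late calls. They are from RefSeq (GRCm38.p6, plus strand of chromosome 14), each from 5′ to 3′ with the seed, bases 2 to 8, in capitals. Members miR-17 and miR-20a share 1 seed, and miR-19a and miR-19b another.
mmu-miR-17-5p (chr14:115043684-115043706): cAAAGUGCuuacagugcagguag
mmu-miR-18a-5p (chr14:115043867-115043889): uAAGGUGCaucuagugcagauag
mmu-miR-19a-3p (chr14:115044048-115044070): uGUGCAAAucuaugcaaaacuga
mmu-miR-20a-5p (chr14:115044183-115044205): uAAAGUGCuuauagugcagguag
mmu-miR-19b-3p (chr14:115044358-115044380): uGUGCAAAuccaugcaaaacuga
mmu-miR-92a-3p (chr14:115044476-115044496): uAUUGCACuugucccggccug

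In the Mir344 family, counted per hairpin, 7 mature 5p sequences shared the seed GUCAGGC and 3 shared AGGCUUC. Of the 3p sequences, 4 shared AUAUAAC and 3 shared GAUCUAG. The repeated seeds come from related hairpins on the minus strand of chromosome 7. A sequence of each kind except AGGCUUC is shown with its seed in capitals (RefSeq, GRCm38.p6).
mmu-miR-344b-5p (chr7:61790556-61790578): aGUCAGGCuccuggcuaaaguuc
mmu-miR-344e-3p (chr7:61735539-61735560): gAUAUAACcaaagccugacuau
mmu-miR-344c-3p (chr7:61837323-61837345): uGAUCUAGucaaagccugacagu

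Promoters were compared over the window from 250 bases before to 50 bases after the start of a gene in RefSeq. The table gave 15687 autosomal promoters of annotated protein-coding genes, of which 2136 were in the regions and 11049 in tight and early segments. The median A/T content was 58.3% in the regions against 40.7% in tight and early segments and 42.7% overall. At least 10 CG dinucleotides were present in 25.1% of the promoters in the regions, against 59.9% of all autosomal promoters, and no CG at all in 18.3% against 4.76%. The letters TATAAA, on either strand, were found in 30.1% against 12.9% of all promoters, and CCAAT, likewise on either strand, in 39.8% against 38.4%.

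Part of this came from sensory receptors. For their 782 promoters in the regions the median A/T content was 65.7%, TATAAA was found in 43.9%, and none had 10 or more CG. For the other 1354 promoters of the regions the values were 51.3%, 22.1% and 39.7%. They were 40.3%, 8.46% and 70.7% for the 10873 promoters without sensory receptors in tight and early segments. With sensory receptors included, the 1053 promoters of tight and late segments had 49.0%, 16.5% and 40.5%, and the 775 of loose and early segments 47.0%, 16.8% and 56.5%, so that these traits were not those of the regions alone. A match of letters is no evidence of a binding site, and RefSeq starts of receptor genes may not be the true transcription starts.

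Of the promoters in the regions, 3 are shown as examples of these kinds, chosen after the values were seen and read in the direction of the gene (RefSeq, GRCm38.p6). Olfr1141 lies in the region with most genes and has an A/T content of 69.7% with 1 CG, and Sprr2b, from the skin cluster, has 54.0% and 2 CG. In both the capitals mark TATAAA, which in Olfr1141 reads as TTTATA on the printed strand. Cntnap2, an adhesion protein of the axon, has 40.3% and 14 CG, which are in capitals.
Olfr1141 (chr2:87753942-87754241, minus strand): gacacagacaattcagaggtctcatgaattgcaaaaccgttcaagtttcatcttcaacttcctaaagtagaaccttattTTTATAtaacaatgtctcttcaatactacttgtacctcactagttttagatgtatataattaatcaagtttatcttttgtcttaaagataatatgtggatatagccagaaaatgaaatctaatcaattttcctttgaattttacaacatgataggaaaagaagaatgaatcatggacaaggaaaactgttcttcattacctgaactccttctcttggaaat
Sprr2b (chr3:92316455-92316754, plus strand): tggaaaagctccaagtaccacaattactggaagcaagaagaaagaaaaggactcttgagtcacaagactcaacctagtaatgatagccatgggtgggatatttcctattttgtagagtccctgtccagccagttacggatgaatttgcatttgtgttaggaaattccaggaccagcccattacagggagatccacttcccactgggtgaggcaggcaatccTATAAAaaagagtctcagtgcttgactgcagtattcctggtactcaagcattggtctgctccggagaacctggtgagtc
Cntnap2 (chr6:45059811-45060110, plus strand): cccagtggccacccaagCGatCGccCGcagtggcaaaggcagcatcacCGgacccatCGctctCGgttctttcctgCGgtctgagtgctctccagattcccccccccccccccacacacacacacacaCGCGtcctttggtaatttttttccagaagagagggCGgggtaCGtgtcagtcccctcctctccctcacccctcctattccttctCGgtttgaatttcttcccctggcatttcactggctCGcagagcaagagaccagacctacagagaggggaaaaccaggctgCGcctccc

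Among regions of at least 1 Mb, the highest A/T contents were those of chr15:47300001-49150000 (64.0%, Csmd3), chr15:17000001-19250000 (63.8%, Cdh10) and chr1:108550001-110700000 (63.6%, Cdh7), each with a single protein-coding gene. Among the lowest were those of chr9:27800001-29400000 (58.8%), in which no gene starts although the bodies of Opcml and Ntm reach into it, and of chr1:193700001-195150000 (58.9%) with Plxna2, Cd34, Cd46 and Cr1l. The index was between −1.08 and −0.997 in the A/T-rich regions and between −0.31 and −0.28 in the A/T-poor pair. Timing did not follow this order, with values from −0.87 to −0.79 in the A/T-rich regions and of −1.06 and −0.86 in the A/T-poor pair.

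To show the sequence behind these percentages, the central 200 bases are printed for the longest region, for the region of highest A/T content and for the longest tight and early segment, with runs of 5 or more A or T in capitals (GRCm38.p6, plus strand). The centre of the longest region is intergenic, 548 kb from Slitrk6, with an A/T content of 51.5%, so a small window need not follow its region. The centre of the A/T-richest region lies in an intron of Csmd3, and 71 of its bases are in such runs, the longest of 22 bases. The tight and early window lies within Adsl, an enzyme of purine synthesis, overlaps an annotated exon of that gene and holds no such run. Of the 200 bases, 25, 167 and 107 were soft-masked in the windows, in the order printed.
Longest region (chr14:110199901-110200100): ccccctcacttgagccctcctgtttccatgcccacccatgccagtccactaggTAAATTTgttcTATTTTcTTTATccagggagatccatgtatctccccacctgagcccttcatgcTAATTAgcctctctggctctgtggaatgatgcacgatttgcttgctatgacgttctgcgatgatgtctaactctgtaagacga
Highest A/T content (chr15:48224901-48225100): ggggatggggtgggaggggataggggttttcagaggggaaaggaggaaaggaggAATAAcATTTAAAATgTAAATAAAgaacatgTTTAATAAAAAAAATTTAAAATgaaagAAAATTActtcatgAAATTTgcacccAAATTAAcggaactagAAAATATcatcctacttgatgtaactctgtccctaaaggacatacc
Tight and early segment (chr15:80949901-80950100): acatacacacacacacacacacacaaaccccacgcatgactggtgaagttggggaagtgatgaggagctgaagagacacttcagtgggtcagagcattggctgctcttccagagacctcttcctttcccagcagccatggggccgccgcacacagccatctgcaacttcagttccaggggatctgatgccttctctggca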

How the data were processed

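By the submitters' processing notes, reads were processed with cutadapt 4.3, Bowtie2 2.5.1 (mm10), Picard, SAMtools and bedtools 2.30.0. The authors smoothed a z-score of 100 kb bins, called NRDs with HOMER and deposited a score for each. Over all chromosomes the deposited list held 611 LoNRDs with a median of 1100 kb, fewer and longer than the paper reports. The value of each RT domain is a quantile-normalised log2 ratio deposited by the authors, from 50 kb windows. How a domain's value arises from its bins is not given in the sources used here. Regions were intersected with Python 3.11.15, numpy 2.4.6 and pandas 2.3.3, and bedtools 2.31.1 gave the same 679. In each list 0 touching neighbours of the same kind needed joining. Sequence (GRCm38.p6) was counted in 50 kb bins, and genes (GENCODE vM21) were assigned by their annotated start. Intervals came from scipy 1.17.1. The scripts were tested on simulated domains. No test was made, since the lists used hold no replicate values. Members and gene lists were chosen with earlier results of these data known. Named regions were the 5 longest, up to 3 at each stated extreme and the 3 on each side of the length limit, with up to 5 genes each in order of position, and members of most lists with up to 5 genes in the regions. Other genes were named after the values were seen, as were the split of keratins from keratin-associated proteins, the groups by rank and by distance from an end, the gaps and the limit of 10 CG. Alternatives changed the minimum length, joining, gene assignment, bases counted and border distance.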

Additional observations from a re-analysis of the deposited data

How the results depend on the processing

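Of 30 alternative values for 9 results, 22 stayed within 1.5 times the main value (number and summed length), within the 95% interval (shares of genes, regions and ends) or within 1 SD over chromosomes (others). The values without joining could not differ, since no touching neighbours needed joining. Gene density without sensory receptors was 1.98 against 2.98 per Mb. It counted as unchanged only because the SD over chromosomes was 1.95. The share of ends at both borders depended on the distance allowed, 4.71% at 0 kb, 15.5% at 50 kb and 37.4% at 200 kb against 24.8% at 100 kb, since a wider window takes in more ends by construction. The share of regions without a protein-coding gene was 13.3% with any overlap and 19.5% among regions of at least 500 kb, against 23.7%. The share of autosomal genes in the regions was 12.4% for whole genes and 14.5% for any overlap, against 13.5%, and the cause of these shifts was not tested. A/T content outside soft-masked repeats was 61.1% against 61.5%, a shift just over the SD of 0.33 over chromosomes whose cause was not tested. The number of regions ranged from 548 (at least 500 kb) to 688 (any length), and was 551 with regions up to 200 kb apart joined. Leaving out regions with over 10% unassembled bases or starting within 3 Mb of a chromosome's first wrapping domain (planned from the chromosome end, where bases are unassembled) left 652 regions with 918.4 Mb. No paired analysis was possible because each of the lists used gives 1 value per domain and names no replicate. The lists give no read numbers per domain, and the grids of 50 and 100 kb set the precision of each border.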
